A study of Mus musculus with 30 samples.

Results

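Small nuclear RNA (snRNA), small nucleolar RNA (snoRNA) and small Cajal body RNA (scaRNA) genes were examined in the RNA-seq libraries of 23 single pre-implantation mouse embryos that differed in Dis3, which encodes a catalytic ribonuclease of the RNA exosome. The members were the genes of the count tables with the GENCODE vM21 biotype snRNA, snoRNA or scaRNA and at least 30 raw counts summed over the 23 embryos, and the host or overlapping gene of each was recorded. Of 55487 genes in the tables, 135 met this rule. They came from 2941 annotated genes of the 3 biotypes, of which 660 had at least 1 count, and they held 24616 of the 28200 counts on all of them. The lowest member had 30 counts, and 4 genes with 29 counts were just left out. Because the null embryos entered that sum, 39 members reached 30 counts only with them, and 96 reached it in the 16 het and WT embryos alone. Levels of the 39 are therefore given as a description, and counts of calls that include any of the 39 are no test of the members.

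The U1, U2, U4, U5 and U6 snRNAs are the RNA parts of the major spliceosome, and U12 belongs to the minor spliceosome. Box C/D snoRNAs guide ribose methylation and box H/ACA snoRNAs guide pseudouridylation, mostly of ribosomal RNA, while scaRNAs guide the same modifications of snRNAs in Cajal bodies. Most mammalian snoRNAs and scaRNAs are cut out of introns of host genes, whereas most spliceosomal snRNAs and a few snoRNAs are transcribed from their own promoters. The nuclear exosome trims or degrades the 3′ ends of such precursors, and the mature RNAs carry no poly(A) tail.

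The E2.5 set held 6 WT, 2 het and 4 null embryos, the E2.75 set 3 WT, 5 het and 3 null embryos. All came from matings of Dis3 het parents. The null allele lacks exons 3 to 5 of Dis3 after CRISPR/Cas9 cutting, and every embryo developed from an oocyte of a het mother. Each library was made from the RNA of 1 embryo bound to oligo-dT beads, with ERCC spike-in RNA added, and the genotype was read from its remaining genomic DNA. Which embryos were litter mates is not given in the sources used here, so p-values measure the spread between single embryos. Values are TMM-normalized CPM (counts scaled to the effective library size), and a gene was called changed at an edgeR quasi-likelihood adjusted p under 0.1 with a log2 fold change beyond 1 in size. Since embryos were measured whole, fewer cells of a type and less RNA per cell cannot be told apart.

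The sequences below are those of members with large differences between genotypes, shown so that copies and sequence boxes can be compared (GRCm38, 5′ to 3′, written as DNA). The first set holds snRNAs of the major and the minor spliceosome. These are the U2 genes Gm25360 (chr1:72226240-72226430, plus strand) and Gm26316 (chr11:101604850-101605040, plus strand) and the U12 gene Rnu12 (chr15:83149644-83149794, plus strand). Capitals mark ATTTTTG, the letters of an Sm-protein site as they stand in these genes.
Gm25360: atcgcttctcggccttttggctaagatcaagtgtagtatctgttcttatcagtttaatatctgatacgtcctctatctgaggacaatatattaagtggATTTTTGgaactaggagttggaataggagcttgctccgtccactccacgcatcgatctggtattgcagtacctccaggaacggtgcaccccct
Gm26316: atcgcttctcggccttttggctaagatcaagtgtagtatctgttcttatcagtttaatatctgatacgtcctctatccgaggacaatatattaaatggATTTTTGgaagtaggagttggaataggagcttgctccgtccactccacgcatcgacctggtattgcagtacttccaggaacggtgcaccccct
Rnu12: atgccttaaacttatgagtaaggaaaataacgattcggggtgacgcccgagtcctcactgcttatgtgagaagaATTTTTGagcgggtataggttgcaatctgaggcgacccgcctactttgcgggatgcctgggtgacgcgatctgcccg

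The second set holds 3 box C/D snoRNAs and 1 box H/ACA snoRNA. Snord118, the U8 snoRNA, lies between genes at chr11:69073427-69073561 on the plus strand. Snord17 lies at chr2:144265979-144266216 on the minus strand in an intron of Snx5, and Gm24494, a SNORD45 gene, lies at chr3:153911610-153911690 on the minus strand in an intron of Rabggtb. Gm22748, of the SNORA42/SNORA80 family, lies at chr12:17546146-17546281 on the plus strand in an intron of Odc1. Capitals mark TGATGA (box C) within the first 20 bases and CTGA (box D) within the last 12 bases of the box C/D genes, and ACA near the end of Gm22748.
Snord118: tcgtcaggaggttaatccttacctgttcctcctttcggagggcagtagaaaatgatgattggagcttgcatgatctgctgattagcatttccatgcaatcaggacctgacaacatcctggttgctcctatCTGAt
Snord17: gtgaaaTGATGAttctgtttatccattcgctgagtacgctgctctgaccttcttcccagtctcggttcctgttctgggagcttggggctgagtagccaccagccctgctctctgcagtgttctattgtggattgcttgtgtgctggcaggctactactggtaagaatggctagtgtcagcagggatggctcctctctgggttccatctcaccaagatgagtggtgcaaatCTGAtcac
Gm24494: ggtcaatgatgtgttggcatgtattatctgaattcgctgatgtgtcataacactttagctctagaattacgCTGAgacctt
Gm22748: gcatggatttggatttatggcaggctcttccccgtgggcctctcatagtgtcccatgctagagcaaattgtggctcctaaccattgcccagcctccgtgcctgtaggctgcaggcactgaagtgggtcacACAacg

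The 135 members comprised 32 snRNA, 34 box C/D snoRNA, 47 box H/ACA snoRNA, 11 other snoRNA and 11 scaRNA genes. Their lengths ranged from 65 to 414 bp around a median of 132 bp, and 115 had a family name in RefSeq. In 29 of the 34 box C/D members CTGA was found in the last 12 bases on the gene's strand, and in 22 of them TGATGA was found in the first 20 bases. In 45 of the 47 box H/ACA members ACA was found in the last 8 bases. ATTTTTG or ATTTTTTG was present on the gene's strand of 13 of the 32 snRNA members (40.6%), 1 of the 47 box H/ACA members (2.13%) and 14 of all 135 members (10.4%). Each member occurred once in the genome as an exact sequence, but 27 had another copy at 95% identity or more. How reads that fit several near copies were handled is not given in the sources used here, so the values of single U1, U2, U5 and U6 genes remain uncertain within their families.

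By position, 84 members lay in an intron of a gene of the same strand, 19 lay between genes, 17 lay inside a gene of the opposite strand and 15 overlapped an exon of another gene. The snRNA members were spread over these settings, with 12 between genes, 12 in introns of the same strand, 7 inside a gene of the opposite strand and 1 on an exon. Of the box C/D members 27 of 34 were intronic, and of the box H/ACA members 33 of 47 were intronic. In 120 members all bases were free of other exons. Reads were counted without strand, so reads of a member and of unspliced RNA across the same bases cannot be told apart, whichever strand they came from.

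Depth and library quality moved with genotype. Gene counts ranged from 1690192 to 9993650 in null, from 3009380 to 14013185 in het and from 3283708 to 14015980 in WT libraries, and 2 E2.75 null libraries were the shallowest. The share of counts outside annotated exons ranged from 32.3% to 43.9% in null, from 21.2% to 27.9% in het and from 21% to 33.4% in WT libraries; its part in the results below was not tested. Dis3 was at 11 ± 7.53 CPM in null (SD, n = 7), 45.5 ± 10.6 CPM in het (SD, n = 7) and 87.7 ± 43.4 CPM in WT embryos (SD, n = 9). E2.5 WT replicate 6, at 18.0 CPM of Dis3, was inside the null range, although its members summed to 105.7 CPM, inside the WT range. All 12 pre-implantation markers had counts, and they summed to at least 6029.5 CPM in null, 5817.8 CPM in het and 5392.9 CPM in WT embryos. The 8 cumulus cell markers, of which 7 had counts, summed to at most 18.8 CPM in null, 2.7 CPM in het and 0.821 CPM in WT embryos. A wider list of 12 cumulus and granulosa cell genes summed to 175 to 428 CPM in null, 143 to 390 CPM in het and 84.8 to 292.5 CPM in WT embryos. It holds the same 8 markers and Inha, Inhba, Nr5a2 and Cd44, and nearly all of its level came from these added genes. Which cells they came from was not tested.

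As a whole, the small RNA genes took a larger share of the libraries of null embryos. Members summed to 232 CPM at the lowest, 330 CPM at the median and 571 CPM at the highest in null embryos. In het embryos the sum was 67.9, 72.0 and 97.6 CPM, and in WT embryos 45.7, 97.4 and 134 CPM, in the same order. Every null embryo was above every het and WT embryo, while het and WT embryos overlapped. These sums include the members that the null embryos brought over 30 counts, so their order is a description. The most abundant member, the U2 gene Gm25360, held 19.3% of the members' counts in null embryos, and without it the sums were 204 to 390 CPM in null, 67.9 to 95.4 CPM in het and 45.6 to 134 CPM in WT embryos. Between 65 and 107 members had a count in each embryo.

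**Figure D1:**
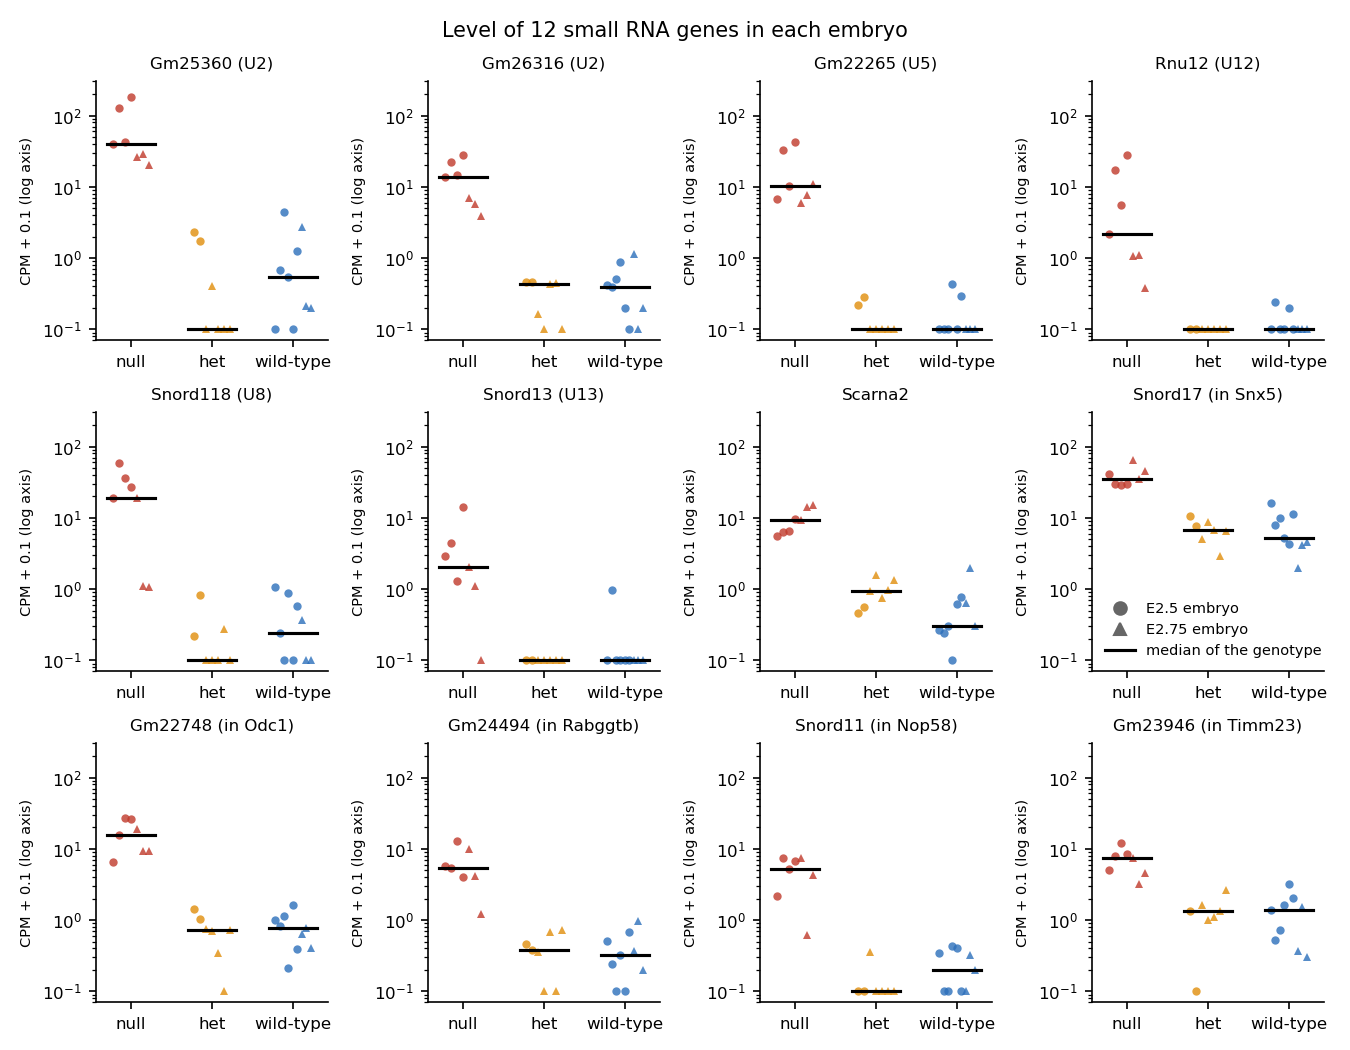
CPM of 12 members in each of the 23 embryos, with 0.1 added so that zeros can be drawn on the log axis; each point is an embryo, grouped by genotype, its shape gives the stage, and bars mark the group medians. Gm25360, Gm22265 and Snord17 were higher in every null embryo than in any het or WT embryo, whereas Snord118 and Rnu12 spread widely among null embryos.

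The edgeR fit across 13415 genes held 32 of the 135 members, since a filter on low counts kept only genes counted in enough embryos. In null against het embryos 8 members were called higher and 0 lower, against 3.67% of all genes called higher and 2.06% called lower. In null against WT embryos 8 were called higher and 1 lower, against 3.66% and 1.59% of all genes. The 8 were in both comparisons the U2 genes Gm25360, Gm26316 and Gm22973, the U5 gene Gm22265, and Snord17, Gm22748, Gm23946 and Scarna2, of which Gm22265 reached 30 counts only through the null embryos. Both comparisons use the same null libraries and are given side by side. Because the filter needs a gene to be counted in as many embryos as the smallest genotype group, a member could pass it through the null embryos alone. Besides Gm22265, this held for Gm25360, Gm26316, Gm22973, Gm22748 and Scarna2, which had too few het and WT embryos above its minimum. These counts therefore say nothing on their own about the members. Adjusted p-values of those genes from this fit, given below, carry the same limit. All 135 were tested in a fit of the 20737 genes with at least 30 counts over the 23 embryos, a filter chosen after seeing the data that does not look at genotype. There, among the 96 members that reached 30 counts without the null embryos, 9 were called higher in null than in het embryos and 10 in null than in WT embryos, against 4.87% and 5.95% of all genes. Gm25360, Gm26316, Gm22973, Gm22748, Scarna2 and Snord17 were among those called in both comparisons. One of the 96 was called lower in null than in WT embryos and 0 than in het embryos, against 2.1% and 2.47% of all genes. The median log2 difference of the 96 was 0.29 against het and 0.14 against WT, beside 0.02 and −0.04 over all genes. Over all 135 members, a count that the choice of members affects, 21 and 26 were called higher and 0 and 1 lower. Without any filter 18 and 23 members were called higher, against 3.77% and 7.95% of all genes, and with DESeq2 33 and 34, against 3.69% and 3.53%. The null embryos lay above every het embryo in 19 members and below in 1, against 1.71% and 0.463% of the 20737 genes, and above every WT embryo in 12 members and below in 0, against 1.21% and 0.106%. Among the 96 members that reached 30 counts without the null embryos, the null embryos lay above in 11 and below in 1 against het, and above in 6 and below in 0 against WT.

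Scaling to ERCC counts moved the median of all genes to −1.08 in null against het and to −0.37 in null against WT embryos, from 0.02 and −0.02 under TMM. Of all genes called, 64.1% and 69.7% were higher in null embryos under TMM and 6.05% and 40.3% under ERCC scaling. Of the 8 members called higher in each comparison, 7 were also called higher under ERCC scaling, the exception being Gm23946. Per 1000 ERCC counts, all members summed to 3.74 to 7.98 in null (median 6.53), 1.79 to 4.44 in het (median 2.93) and 1.31 to 2.67 in WT embryos (median 1.98), so null and het embryos then overlapped. On that scale the order of the null and het medians turned for the U6 genes, the other snoRNAs and the exon-overlapping members, and the intronic members were nearly level at 2.21 and 2.09. The ratios per ERCC counts below are to het embryos only and do not describe WT embryos. Under ERCC scaling the median log2 difference of the 32 members tested was −0.10 against het but 0.67 against WT embryos.

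Among the snRNAs, the U2 genes were the most abundant in null embryos. U2 base-pairs with the branch point of introns. The 6 U2 members summed to 36.3 to 232 CPM in null embryos (median 63.0), but to 0.129 to 4.62 CPM in het and 0.111 to 8.21 CPM in WT embryos. Gm25360 lies 137786 bp from the nearest upstream gene of the same strand, small RNA genes left aside. Gm25360 was at 20.2 CPM at the lowest, 40.1 at the median and 181 at the highest in null embryos. In het embryos it was at 0, 0 and 2.2 CPM, with counts in 3 embryos, and in WT embryos at 0, 0.443 and 4.31 CPM. The null embryos did not overlap the others. The log2 fold change was 6.75 against het (SE 1.20, edgeR adjusted p = 0.00149) and 6.12 against WT (SE 1.05, edgeR adjusted p = 0.00068). Per kb of gene the mean of null embryos was 349 CPM, the highest of the U2 genes.

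Gm26316, another U2 gene between genes, ranged from 3.86 to 28.1 CPM in null embryos (median 13.7), from 0 to 0.369 CPM in het and from 0 to 1.06 CPM in WT embryos. Again null embryos stood apart from both groups. Its log2 fold changes were 5.86 (SE 1.05, edgeR adjusted p = 0.00149) and 5.32 (SE 0.92, edgeR adjusted p = 0.0007). Its 191 bases differed from those of Gm25360 at 5 positions (T78C, G95A, C109G, T154C and C170T, counted from 1 at the 5′ end with the base of Gm25360 first). Gm22973, with 10 such differences, ranged from 2.94 to 14.7 CPM in null, from 0 to 1.11 CPM in het and from 0 to 2.99 CPM in WT embryos, so that the lowest null embryo fell within the WT range. It rose against het (log2 fold change 5.00, SE 1.17, edgeR adjusted p = 0.0125) and against WT (3.19, SE 0.97, edgeR adjusted p = 0.062), and the second call was lost without the 2 shallowest null libraries (edgeR adjusted p = 0.105), without E2.5 null replicate 4 (0.106) and without E2.75 null replicate 3 (0.103). Gm24497, a U2 gene in an intron of D230017M19Rik, had 76 counts in null, 4 in het and 3 in WT embryos and reached 30 counts only through the null embryos.

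The U5 and U12 genes were near 0 outside the null embryos. U5 holds the exons together during splicing, and U12 binds the branch point of the rare introns that the minor spliceosome removes. The 5 U5 members summed to 11.1 to 62.2 CPM in null (median 14.7), at most 0.978 CPM in het and at most 0.818 CPM in WT embryos. Gm22265, which lies inside Hhat on the opposite strand, ranged from 5.88 to 42.1 CPM in null embryos (median 10.0), with at most 0.185 CPM in het and 0.332 CPM in WT embryos. That was 579 counts in null, 3 in het and 5 in WT embryos, so it reached 30 counts only through the null embryos.

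The other U5 genes had fewer counts, and all of them reached 30 only through the null embryos. Gm25099 had 102 counts in null, 4 in het and 0 in WT embryos. Gm23287 had 68, 3 and 0 counts, and Gm23143 had 52, 2 and 4 counts. Rnu5g was at most 1.40 CPM in null, 0.245 CPM in het and 0.409 CPM in WT embryos, and its null embryos overlapped both groups. Rnu12, the only U12 member, had 265 counts in null, 0 in het and 2 in WT embryos, and ranged from 0.275 to 28.1 CPM among null embryos (median 2.07). Rnu12 also reached 30 counts only through the null embryos, and E2.5 null replicates 2 and 4 held 101 and 120 of its 265 null counts.

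The sums of the U1, U4 and U6 genes overlapped between genotypes. U1 pairs with the 5′ splice site, and U4 and U6 enter the spliceosome as a pair from which U6 is freed to form the catalytic centre. The 6 U1 members summed to 2.73 to 13.7 CPM in null, 0 to 5.35 CPM in het and 1.85 to 5.89 CPM in WT embryos, and the groups overlapped. Within them Gm22739, in an intron of Ccdc170, had 62 counts in null, 4 in het and 15 in WT embryos, and E2.75 null replicate 1 alone was at 11.8 CPM beside a null median of 1.40. Gm22043, a U1 gene in an intron of Larp1b, ranged from 0.275 to 3.04 CPM in null, 0 to 4.43 CPM in het and 0 to 5.89 CPM in WT embryos. The 8 U6 members summed to 3.57 to 14.7 CPM in null, 2.45 to 8.29 CPM in het and 2.76 to 12.9 CPM in WT embryos, also overlapping. The U6 gene Gm23851, inside Cops7a on the opposite strand, had 38 counts in null, 2 in het and 2 in WT embryos, at 0.207 to 2.48 CPM in null and no more than 0.129 CPM in het and 0.221 CPM in WT embryos. Gm22739 and Gm23851 reached 30 counts only through the null embryos, and in both every null embryo was above every het embryo. The single U4 member, Gm25284, reached 3.04 CPM in null, 3.05 CPM in het and 7.07 CPM in WT embryos.

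Of the snRNA members 21 reached 30 counts without the null embryos, among them 5 U2, 4 U1, 7 U6 and 1 U4 but 0 U5 and 0 U12 genes. In the fit of all members, the 3 U2 genes Gm25360, Gm26316 and Gm22973 were the only ones of the 21 called higher, both against het and against WT embryos, and 0 were called lower. The median log2 difference of the 21 was 0.64 against het and −0.24 against WT. The whole snRNA class summed to 73.4 to 340 CPM in null (median 91.4), 4.20 to 19.8 CPM in het (median 8.89) and 8.27 to 23.1 CPM in WT embryos (median 19.3).

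The box C/D snoRNAs summed to 68.9 to 137 CPM in null (median 110), 16.8 to 28.6 CPM in het and 12.7 to 36.0 CPM in WT embryos, without overlap of null with either group. The null median was 4.25 times the het median by CPM and 1.54 times per ERCC counts, at 1.35 to 2.76 in null, 0.418 to 1.32 in het and 0.383 to 0.767 in WT embryos per 1000 ERCC counts, still without overlap. Snord17, a guide of ribosomal RNA methylation in an intron of Snx5, had counts in all 23 embryos. It ranged from 28.5 to 63.8 CPM in null (median 34.7), from 2.82 to 10.6 CPM in het (median 6.60) and from 1.85 to 15.9 CPM in WT embryos (median 5.09). All null embryos lay above the rest. It rose against het (log2 fold change 2.51, SE 0.46, edgeR adjusted p = 0.00159) and against WT (2.44, SE 0.41, edgeR adjusted p = 0.000651).

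Snord118 encodes the U8 snoRNA, which acts in the processing of large-subunit ribosomal RNA. Its gene starts 134 bp after the end of Tmem107. It ranged from 0.964 to 58.2 CPM in null embryos (median 19.1), from 0 to 0.738 CPM in het and from 0 to 0.975 CPM in WT embryos. The lowest null embryo was just inside the WT range, and null and het embryos did not overlap. Snord118 was left out of the main fit by its filter, and in the fit of all members its log2 fold change was 7.02 against het (SE 1.29, edgeR adjusted p = 0.00252) and 6.12 against WT (SE 1.10, edgeR adjusted p = 0.00133). Gm24494 rose in the same fit against het (4.14, SE 1.07, edgeR adjusted p = 0.0303) and against WT (4.25, SE 0.97, edgeR adjusted p = 0.0105). It ranged from 1.10 to 12.8 CPM in null, at most 0.630 CPM in het and at most 0.887 CPM in WT embryos, again without overlap.

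Among members named after their values were seen, Snord13, the U13 snoRNA, which lies between genes and takes part in the acetylation of small-subunit ribosomal RNA, had 124 counts in 6 of the null embryos, 0 in het embryos and 6 in a single WT embryo. Snord11, in an intron of Nop58, had 155 counts in null, 4 in het and 12 in WT embryos. Snord65 went the other way. It had 0 counts in null, 15 in het and 21 in WT embryos. Over the pooled counts that is at least 2.90-fold and 3.10-fold higher in het and WT than in null embryos, against a floor of 3 counts over the group.

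The box H/ACA snoRNAs summed to 48.5 to 117 CPM in null (median 78.8), 23.5 to 46.8 CPM in het and 20.0 to 63.4 CPM in WT embryos, with null and WT embryos overlapping. The null median was 2.54 times the het median by CPM and 1.07 times per ERCC counts. Gm22748, in an intron of Odc1, ranged from 6.52 to 27.0 CPM in null (median 15.7), from 0 to 1.35 CPM in het and from 0.111 to 1.53 CPM in WT embryos. Null embryos did not overlap either group. It rose against het (log2 fold change 4.64, SE 0.78, edgeR adjusted p = 0.000864) and against WT (4.55, SE 0.70, edgeR adjusted p = 0.000237). Gm23946, a SNORA74 gene of which 93 of 197 bases are free of exons of Timm23, ranged from 3.06 to 11.8 CPM in null, from 0 to 2.52 CPM in het and from 0.202 to 3.07 CPM in WT embryos. Its calls were near the threshold (log2 fold change 2.49 in both, SE 0.83 and 0.76, edgeR adjusted p = 0.0957 against het and 0.0649 against WT), and with 1 embryo left out they were lost in 13 of 14 and 5 of 16 fits, at adjusted p up to 0.163 and 0.116.

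Gm24451, on an exon of Nop56, went the other way. It ranged from 0 to 0.981 CPM in null, from 1.20 to 2.64 CPM in het and from 0.908 to 2.56 CPM in WT embryos, so null and het embryos did not overlap. It was not called (log2 difference −1.77, SE 0.71, edgeR adjusted p = 0.176 against het, and −1.88, SE 0.68, edgeR adjusted p = 0.14 against WT). Under ERCC scaling it was called lower against both, but there 4487 of 13415 genes were called lower against het and 469 against WT. The abundant Snora21, in an intron of Rpl23, spread from 0.413 to 13.3 CPM among null and from 0.530 to 15.6 CPM among WT embryos, with log2 differences of 0.82 (SE 0.69, edgeR adjusted p = 0.597) and 0.24.

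The scaRNAs summed to 14.8 to 30.6 CPM in null (median 26.2), 4.76 to 10.3 CPM in het and 2.02 to 14.4 CPM in WT embryos. The null median was 4.11 times the het median by CPM but 1.13 times per ERCC counts, where the groups overlapped. Scarna2, the longest member, lies 1674 bp after Tmem167b and guides methylation of snRNA. It ranged from 5.48 to 14.9 CPM in null (median 9.32), from 0.367 to 1.5 CPM in het and from 0 to 1.88 CPM in WT embryos, without overlap. It rose against het (log2 fold change 3.46, SE 0.83, edgeR adjusted p = 0.0151) and against WT (4.25, SE 0.78, edgeR adjusted p = 0.00108). Scarna6, in an intron of Atg16l1, was at 1.10 to 6.42 CPM in null, at most 0.646 CPM in het and at most 1.30 CPM in WT embryos, and was called in the fit of all members (4.00, SE 1.34, edgeR adjusted p = 0.0883, and 3.35, SE 1.18, edgeR adjusted p = 0.0988).

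Gm24289, a scaRNA gene in an intron of Tipin, was the 1 member called lower in null than in WT embryos (log2 fold change −3.95, SE 1.22, edgeR adjusted p = 0.0693; against het −1.65, SE 1.17, edgeR adjusted p = 0.509). Its level moved with stage. The 6 E2.5 WT embryos were at 2.60 to 4.81 CPM and the 3 E2.75 WT embryos at no more than 0.111 CPM, while E2.5 null embryos were at 0 to 0.517 CPM. E2.5 embryos make up 6 of 9 WT and 4 of 7 null libraries, and the call was lost with stage as a covariate (edgeR adjusted p = 0.206) and in 12 of 16 fits that left out 1 embryo, where it missed the threshold or was not tested. Within E2.5 it was not called (−4.48, SE 1.46, edgeR adjusted p = 0.159).

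The 11 other snoRNAs overlapped between genotypes, at 4.03 to 13.2 CPM in null, 1.68 to 7.58 CPM in het and 2.38 to 10.7 CPM in WT embryos. Mir3068, annotated with a snoRNA biotype on an exon of the Alkbh1 locus, had 49 counts in null, 1 in het and 7 in WT embryos, and 1 of its bases is free of other exons.

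**Figure D2:**
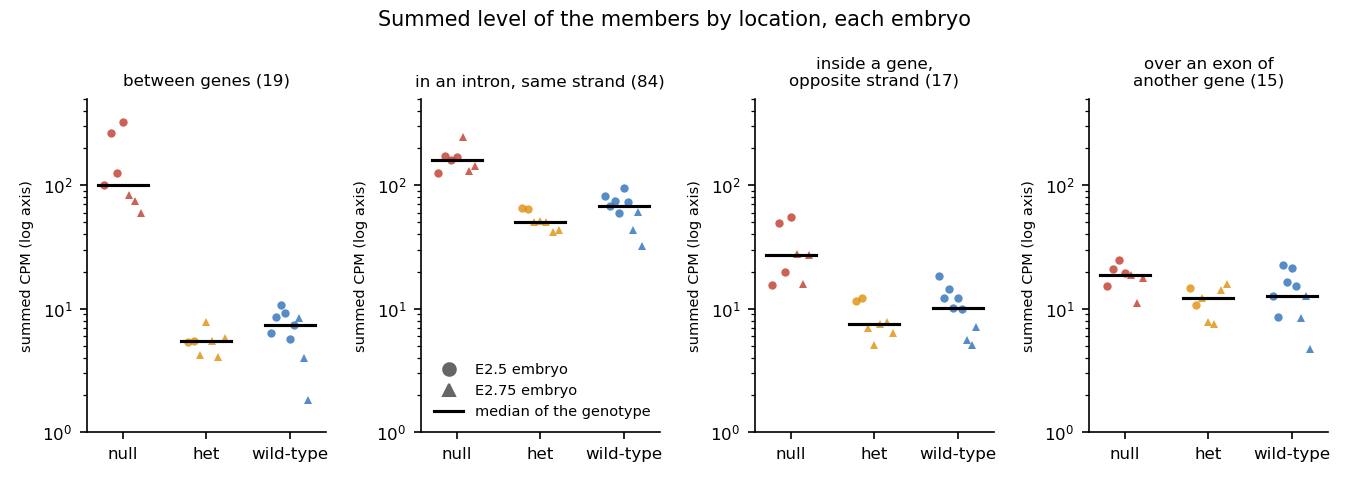
Summed CPM of the members by position in each embryo; points are embryos, grouped by genotype, and bars mark the group medians on a log axis. Members between genes show the widest gap, with null embryos at 59.6 to 327 CPM and all other embryos at 10.7 CPM or less. The sums include members that reached the minimum count only through the null embryos, so the order of positions is a description.

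By summed CPM, the gap between genotypes was widest in members that lie between genes. The sums of each position include members that reached the minimum count only through the null embryos, so this order is a description. The sum between genes also includes Gm25360, which alone was at 20.2 to 181 CPM in null embryos. The 19 members between genes summed to 59.6 to 327 CPM in null (median 100), 4.06 to 7.80 CPM in het and 1.82 to 10.7 CPM in WT embryos. The 84 intronic members summed to 126 to 247 CPM in null (median 161), 42.0 to 66.0 CPM in het and 32.0 to 94.4 CPM in WT embryos. Null embryos stood above the others in both groups, though per 1000 ERCC counts the intronic sums overlapped, at 1.84 to 4.98 in null and 1.25 to 3.0 in het embryos. Members inside a gene of the opposite strand summed to 15.7 to 55.2 CPM in null, 5.10 to 12.3 CPM in het and 5.10 to 18.5 CPM in WT embryos, and exon-overlapping members to 11.2 to 24.9, 7.51 to 15.9 and 4.74 to 22.6 CPM, both with overlap of null and WT embryos.

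Many members between genes reached 30 counts only through the null embryos, so calls are given for the 96 others. In the fit of all members, 5 of 12 such members between genes were called higher against het and against WT (Gm25360, Gm26316, Gm22973, Snord118 and Scarna2), beside 4 of 61 intronic members in each comparison (Snord17, Gm22748, Gm24494 and Scarna6), 0 of 13 on the opposite strand and 0 and 1 of 10 on exons, against 4.87% and 5.95% of all genes. Their median log2 difference against het and WT was 2.05 and 0.77 between genes, 0.38 and 0.20 in introns, −0.34 and −0.61 on the opposite strand and −0.29 and −0.06 on exons, beside 0.02 and −0.04 over all genes. The difference between positions was not tested. Of the members called between genes, the U2 genes Gm26316 and Gm22973 are 97.4% and 94.8% identical to Gm25360. These U2 genes may share reads, and position and family are mixed in these counts. Among the 20 genomic bases after the annotated end, the median number of A was 6 in members between genes and in introns, 7 in members on the opposite strand and 4 in exon-overlapping members.

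**Figure D3:**
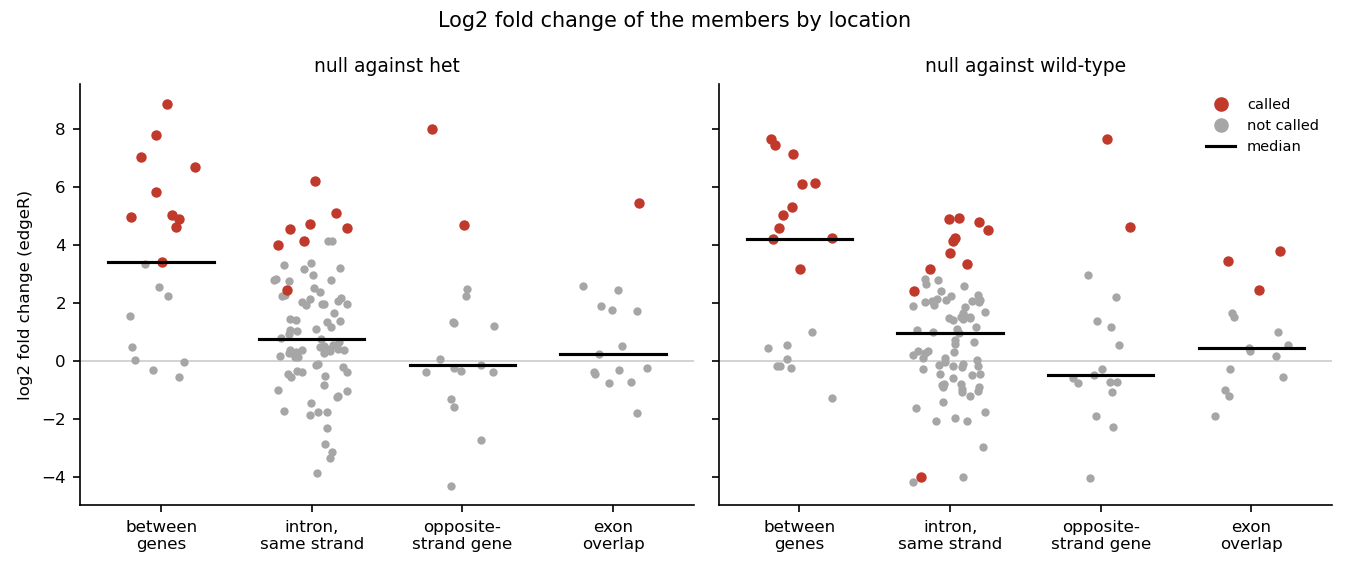
log2 fold changes of the 135 members, null against het and null against WT, by position, from the edgeR fit of genes with at least 30 counts; each point is a member and bars mark medians. All 135 are drawn, with the members that reached 30 counts only through the null embryos, and the medians run from 3.41 and 4.21 between genes to −0.13 and −0.50 on the opposite strand.

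Host genes were called about as often as other genes. Of the members, 95 had a host gene in the count tables, in all 81 hosts. In the same fit 3 hosts were called higher and 1 lower against het, and 2 higher and 0 lower against WT, beside 4.87% and 5.95% of all genes called higher and 2.47% and 2.1% called lower, with median log2 differences of 0.02 and −0.05, beside 0.54 and 0.65 for their members. The member had the higher value in 63 of 95 pairs in each comparison. Both the pairs and the medians include members that reached 30 counts only through the null embryos, so they are a description. Among the 61 intronic members that reached 30 counts without the null embryos, the medians were 0.38 and 0.20. Of the hosted members that reached 30 counts without the null embryos, Snord17, Gm22748, Gm24494 and Scarna6 were called higher in both comparisons and Gm23946 against WT, and 0 had a host that was called higher. Snx5, the host of Snord17, was at 694 ± 199 CPM in null (SD, n = 7), 704 ± 243 CPM in het (SD, n = 7) and 818 ± 318 CPM in WT embryos (SD, n = 9). Odc1, the host of Gm22748, was at 426 ± 123, 497 ± 114 and 468 ± 127 CPM, and Rabggtb, the host of Gm24494, at 165 ± 56.6, 229 ± 83.3 and 242 ± 96.0 CPM in the same order.

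Per 1000 counts of its host, Snord17 was at 33.2 to 127 in null (median 55.4), 5.44 to 13.2 in het and 2.89 to 22.3 in WT embryos, and the null embryos stayed apart. Gm22748 was at 10.3 to 112 in null, 0 to 3.05 in het and 0.306 to 4.66 in WT embryos. Gm24494 was at 12.7 to 90.5, 0 to 2.59 and 0 to 4.83, also apart. Nop58, which encodes a core protein of box C/D particles, hosts both Snord11 and Snord70, and Snord70 had log2 differences of 0.28 and 0.30 and was not called. In Snx5, Gm26165 was likewise not called beside Snord17 (2.22 and 2.11), and in Rpl13a none of its 3 members was called. The genes upstream of Snord118 and Scarna2 were near level, Tmem107 with log2 differences of 0.38 and −0.22 and Tmem167b with −0.23 and 0.13, and neither was called.

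**Figure D4:**
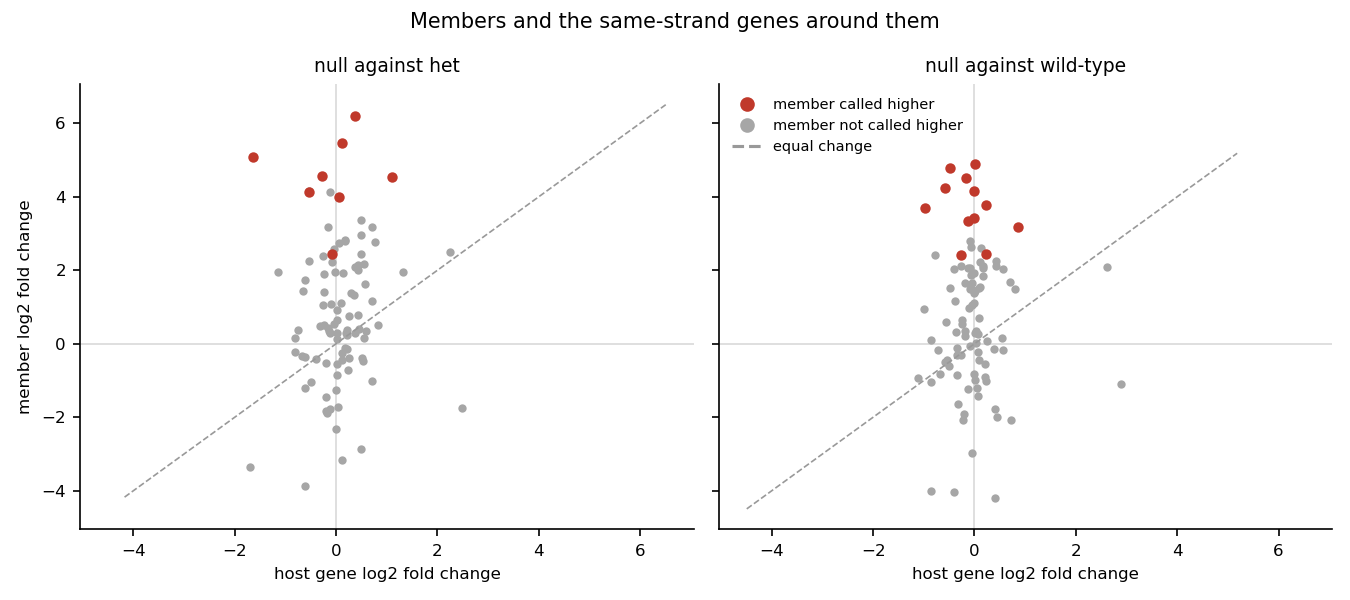
log2 fold change of each hosted member against that of its host gene, null against het and null against WT; each point is a member and the diagonal marks equal change. Hosts cluster around 0 while members spread widely, with 63 of 95 above the diagonal in each comparison.

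The higher sums of null embryos held within each stage, while het and WT embryos overlapped. At E2.5 the members summed to 257 to 571 CPM in null, 93.1 and 97.6 CPM in the 2 het and 95.1 to 134 CPM in WT embryos. At E2.75 they summed to 232, 247 and 377 CPM in null, 67.9 to 74.1 CPM in het and 45.7, 66.2 and 82.9 CPM in WT embryos. Null embryos were above the others at both stages. In E2.5 null against WT embryos edgeR called 11 members higher, against 1.36% of all genes, and 0 lower, against 0.459%, and in null against the 2 het embryos it called 0 higher or lower, against 0% and 0.0126% of all genes. In that comparison 15 members had an unadjusted p under 0.05, as had 9.26% of all genes, and DESeq2 called 16 higher, against 1.51% of all genes. At E2.75, 7 members were called higher and 0 lower against het (2.51% and 2.31% of all genes), and 5 higher and 0 lower against WT (2.19% and 2.35% of all genes). Leaving out any 1 embryo left 4 to 6 members called at E2.5, and at E2.75 3 to 6 against het and 1 to 2 against WT. Of the members called within a stage, Rnu12, Gm22265, Gm25099, Gm23287, Gm22739 and Mir3068 reached 30 counts only through the null embryos, so these counts are a description. Among the others, Gm25360, Gm22748 and Scarna2 were called in E2.5 null against WT and in both comparisons at E2.75, and Snord17 in both at E2.75 (log2 fold change 3.0, edgeR adjusted p = 0.00913 against het, and 3.74, edgeR adjusted p = 0.0129 against WT).

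Some snRNA and snoRNA genes were higher at E2.5 than at E2.75 among null embryos. Rnu12 was at 2.07 to 28.1 CPM in the 4 E2.5 null embryos, with 259 counts, and at 0.275, 0.981 and 1.02 CPM in the 3 E2.75 null embryos, with 6 counts. Snord118 was at 19.1 to 58.2 CPM in E2.5 and at 18.6, 1.02 and 0.964 CPM in E2.75 null embryos, and Gm25360 at 40.1 to 181 CPM and at 20.2, 26.0 and 28.6 CPM. Snord17 overlapped between stages, at 28.5 to 40.9 CPM and at 34.7, 45.6 and 63.8 CPM. The difference between stages of null against WT was called for 0 members and 0% of all 18677 genes tested by edgeR, with 5 members and 10.9% of all genes at an unadjusted p under 0.05, and 1 member called higher by DESeq2, against 0.654% of all genes. The E2.75 null group includes the 2 shallowest libraries. In WT embryos, 0 members were called higher and 1 lower at E2.75 than at E2.5, against 3.74% and 3.64% of all genes, and that member was Gm24289 (log2 fold change −5.28, SE 1.74, edgeR adjusted p = 0.078).

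Between het and WT embryos no difference in a small RNA gene was detectable at this depth with edgeR. Members took 0.00835% of gene counts in het and 0.00927% in WT embryos, beside 0.0338% in null embryos. edgeR called 0 members and 0% of all genes in either direction, with 1 member and 934 genes (6.96%) at an unadjusted p under 0.05, and DESeq2 called 37 genes higher (0.11%) and 28 lower (0.0833%).

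Genes whose proteins make, assemble or trim these RNAs were tested as 11 lists, with 122 genes tested in all lists together. In null against het embryos 4 were higher and 1 lower, and in null against WT embryos 2 were higher and 1 lower, a share near or below the 3.67% and 3.66% higher and 2.06% and 1.59% lower of all genes, so that the counts are no result about the lists. In het against WT embryos 0 were called. The medians were 0.10, −0.06 and −0.13. The lower gene was Dis3 itself (log2 fold change −2.06, edgeR adjusted p = 0.0253, and −3.01, edgeR adjusted p = 0.000943). The genes called higher were Ell, a part of the complex that drives snRNA transcription (2.62, edgeR adjusted p = 0.000308 against het and 3.21, edgeR adjusted p = 8.59e-06 against WT), Snapc3, a subunit of the snRNA-activating complex (1.73, edgeR adjusted p = 0.0159 against het), Znhit6, an assembly factor of box C/D particles (1.01, edgeR adjusted p = 0.0489 against het), Pdcd7, a protein of the minor spliceosome (1.04, edgeR adjusted p = 0.0668 against het), and Zfc3h1, a nuclear exosome adaptor (1.07, edgeR adjusted p = 0.0865 against WT). None of the 4 box C/D core, 6 box H/ACA core, 16 Sm and LSm or 12 SMN complex genes was called in these comparisons.

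Peak lists of POU6F1-mCherry ChIP in mouse embryonic stem cells were set beside the member genes. Of the members, 7 of 135 (5.19%) lay within 1 kb of a peak found in both replicates against both controls, beside 4310 of 55141 genes with a position (7.82%). They were Gm25360, Snora21, AF357399, Gm26397, Snord49b, Snord49a and Snora78, of which Gm25360 was called higher in null embryos.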

How the data were processed

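Single-embryo RNA-seq measured poly(A) RNA captured on oligo-dT beads, amplified by template switching. Per the labels and methods, the authors used cutadapt 3.4 for trimming, STAR 2.7.8a for alignment (GRCm38) and HTSeq 0.11.4, without strand, for counting, and the deposited values are raw counts per gene and ERCC spike-in. The annotation release of the counts is not given in the sources used here. A read had to lie wholly within annotated exons, so reads running past the end of a small RNA were not counted for it. No library lists reads aligned to several places. The deposited ChIP peak lists were made by the authors with Bowtie2 2.4.4 and MACS2 2.2.7.1 and hold a score, a fold ratio and −log10 p and q values per peak; their positions alone were used here.

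Biotypes, positions and hosts came from GENCODE vM21, and sequences and families from GRCm38 and RefSeq. A host is a gene of the same strand that contains the member. Members and lists were chosen with earlier results of these data known. Genotype groups followed the labels. Counts were tested with edgeR 4.0.16 (R 4.3.3; TMM, filterByExpr, quasi-likelihood test, Benjamini-Hochberg over all genes tested) in 1 fit of 23 embryos with stages combined, and within stages. SE is the log2 fold change over the square root of F. DESeq2 1.42.0, other scalings, filters and samples were alternatives. Named members were Dis3, members called in any comparison, the 12 with the highest mean CPM, the 5 largest changes each way among those tested, all snRNA and scaRNA members, their hosts, and called genes of the lists; other members were chosen after their values were seen. The script was tested on simulated data. Intervals are exact and, like floors of 3 counts, cover counting error only. Embryos with the same number and stage did not deviate together (17 pairs, correlations −0.106 to 0.0858), so numbers were not treated as pairs.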

Additional observations from a re-analysis of the deposited data

Results flagged for a closer look

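In groups of 4 to 10 embryos, the embryo at the edge was compared with its neighbours by Dixon's test, which marks about 1 group in 20 by chance. Of 77 groups looked at, 17 held an embryo that stood apart, and most of these groups have a median at or near 0.

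Among null embryos, E2.5 null replicate 4 stood apart in Snord13 at 14.3 CPM (group median 1.96) and in Gm25099 at 10.5 CPM (group median 2.45). E2.75 null replicate 1, a shallow library, stood apart in Gm22739 at 11.8 CPM (group median 1.40) and in the sum of intronic members at 247 CPM (group median 161).

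Among het embryos, 7 values stood above a group median of 0: Snord118 at 0.738 CPM in E2.5 replicate 2, Snord11 at 0.258 CPM and Gm23851 at 0.129 CPM in E2.75 replicate 1, Gm22739 at 0.315 CPM in E2.75 replicate 5, Gm23287 at 0.60 CPM in E2.75 replicate 2, and Gm23143 at 0.245 CPM and Mir3068 at 0.122 CPM in E2.5 replicate 1.

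Among WT embryos, Scarna2 was at 1.88 CPM in E2.75 replicate 2 (group median 0.205). The others stood above a median of 0: Snord13 at 0.867 CPM in E2.5 replicate 2, Gm24497 at 0.411 CPM in E2.5 replicate 3, Gm23143 at 0.409 CPM in E2.5 replicate 5, Mir3068 at 0.795 CPM in E2.75 replicate 1 and Gm23851 at 0.221 CPM in E2.5 replicate 4.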

How the results depend on the processing

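The calls of Gm25360, Gm26316, Gm22748, Snord17 and Scarna2 in null against het and null against WT embryos kept their direction and their side of the threshold under all 9 alternatives and with each embryo left out. No call turned its direction, but with ERCC scaling the median log2 difference of the 32 members tested in null against het embryos went from 0.99 to −0.10, with all genes at −1.08, and the order of the null and het medians of the U6, other snoRNA and exon-overlapping sums turned. In null against WT embryos the median of the 32 members went from 0.95 to 0.67, with all genes at −0.37. The cause of each change below was not tested. Gm23946 lost its call against het in 6 of 9 alternatives and against WT in 3 of 9, and Gm24289 lost its call against WT in 3 of 8. In null against het embryos the 8 members called higher became 18 without a filter on low counts, 21 with the filter of 30 counts over all embryos and 33 with DESeq2. The shares of all genes were 3.77%, 4.87% and 3.69%. The 0 called lower became 3 with ERCC scaling, where 4487 of 13415 genes were called lower, and 1 with DESeq2. In null against WT embryos the 8 became 23, 26 and 34, against 7.95%, 5.95% and 3.53% of all genes. The 1 called lower became 2 with ERCC scaling, where 469 of 13415 genes were called lower, 2 without a filter and 3 with DESeq2. It became 0 with stage as a covariate, with a replicate block, with 2 genotypes in the fit and without the 2 shallowest E2.75 null libraries. All these counts include members that reached 30 counts only through the null embryos. Where no share of all genes is given, here or below, a count says nothing on its own about the members. At E2.5, the 0 against het became 2 with ERCC scaling, 1 without a filter and 16 with DESeq2, and the 11 against WT became 6 with ERCC scaling, 2 with a replicate block and 22 with DESeq2, which also called 3 lower. At E2.75, the 7 against het became 1 with a replicate block and 14 with DESeq2, and the 5 against WT became 3 with ERCC scaling or without a filter, 1 with a replicate block and 16 with DESeq2. DESeq2 called 1 member for the difference between stages, and in WT embryos over stages it called 1 higher and 5 lower, where edgeR called 0 and 1, and 0 lower without a filter. With each embryo left out, the members called higher were 7 to 10 in null against het and 6 to 9 in null against WT embryos (0 to 1 lower), 4 to 6 and 1 to 2 in null against WT embryos at E2.5 and E2.75, 3 to 6 in null against het embryos at E2.75, and 0 in the others. At E2.5 every embryo left out lowered the count against WT below 7, and 4 came without null replicate 4. At E2.75 every embryo left out lowered the count against WT to 1 or 2, and against het the count was 3 without null replicate 3 and 4 without null replicate 1 or 2 or het replicate 1 or 4. The replicate numbers do not pair the embryos (17 pairs, median correlation 0.00789, 0 above 0.1), and the replicate block changed no call of a member named in the stages-combined comparisons other than those of Gm23946 and Gm24289.

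A minimum of 10 counts gave 273 members and of 100 counts 57. The null over het ratio of median sums moved per ERCC counts from 4.25 to 1.54 for box C/D, from 2.54 to 1.07 for box H/ACA, from 4.11 to 1.13 for scaRNA and from 3.17 to 1.06 for intronic members, and to 2.76 for scaRNA without the most abundant member. With peaks against IgG in both replicates 20 members (14.8%) lay within 1 kb, beside 25.4% of all genes. With peaks against both controls and a distance of 5 kb 21 did (15.6%), beside 9.56% of all genes. Whether members were nearer to peaks than all genes thus depended on the distance. Members at a few counts per library limit the precision of single values, and copies at 95% identity or more may share reads.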
